A study of Mus musculus with 2 samples.

Results

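Acinar cells are the exocrine cells of the pancreas, and 31 of their genes were followed here in RNA of pancreatic islets, the endocrine clusters that lie among them. The genes were taken by symbol from a fixed list, and all 31 were found among the 38924 genes in the data, 17282 of which, all 31 included, had at least 20 counts in all. Islets came from male mice, 10 weeks old, of the strains C57BL/6J (B6), the source of the mouse reference genome, and CAST/EiJ (CAST), bred from wild-caught mice of the subspecies castaneus. The labels name no drug and no altered allele, and islets of both strains were kept in buffer with 16.7 mM glucose while they were purified. The islets of 2 mice of a strain were pooled after collagenase digestion, a density gradient and picking by hand, and 250 islets per pool gave 1 RNA library per strain. With 1 library per strain the differences have no replicate check, so no test between strains was made and every interval below covers counting error only.

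Acinar cells make the enzymes that digest protein, fat and nucleic acid, store most of them as inactive precursors in zymogen granules, and release them into the ducts when hormones and nerves call for it. The transcription factors PTF1A and RBPJL, partners in the PTF1 complex, keep the enzyme genes active together with BHLHA15 (also called MIST1) and NR5A2. Islets taken from a digested pancreas usually carry some acinar cells or their RNA, and in a bulk library fewer acinar cells cannot be told apart from less acinar RNA per cell.

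The islet label held in both libraries: the insulin gene Ins2 stood at 404421 TPM (a length-corrected share of all transcript molecules) in B6 and 477729 in CAST, and the other hormone genes were abundant in each. The libraries held 76600903 and 104324631 counts. Ratios are given as the log2 of CAST over B6 on counts scaled by TMM, a library size correction that leaves out the most divergent genes; on that scale the median of all genes with 20 or more counts was 0.01. Scaling by total counts moved that median to -0.14 and TPM moved it to -0.22, so a ratio read from the TPM values below is smaller than the scaled one. The 7 endocrine markers were within 2-fold on TMM-scaled counts, from Sst at -0.90 to Ppy at 0.64, but Sst was at -1.05 with total counts, and by TPM Sst was 2.38-fold and Chga 2.17-fold higher in B6.

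Transcripts of digestive enzymes and granule proteins were more abundant in the CAST library. Those of the acinar transcription factors differed by less than 2-fold, as those of most genes did. Of the 31 genes 26 were at least 2-fold higher in CAST, where 9.17% of all genes were, and 16 were at least 4-fold higher, where 4.56% were. The count at 4-fold depends on the scaling and was 11 with total counts and 6 by TPM, while the 4.56% of all genes holds for TMM scaling only. In B6 none was 2-fold higher or more, against 8.12% of all genes. The median log2 ratio was 2.02, or 4.06-fold, and 20 genes lay within 0.5 of it. The 5 genes under 2-fold were the 4 transcription factors and Tmed6. Together the 31 genes held 366997 B6 counts and 1767041 CAST counts. These were 0.479% (0.478 to 0.481) and 1.69% (1.69 to 1.70) of the libraries, with exact Clopper-Pearson intervals.

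**Figure D1:**
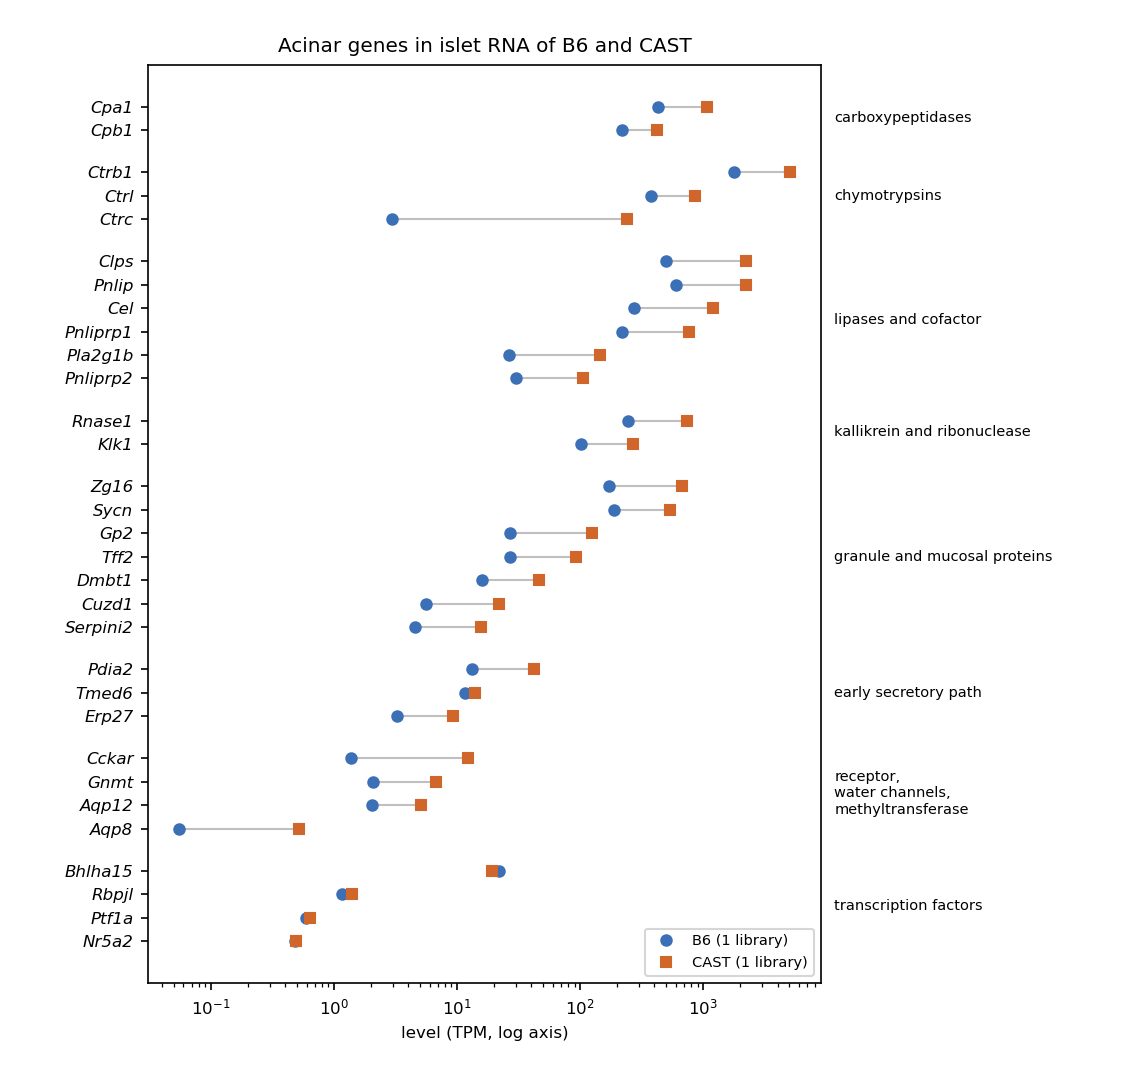
Level of each acinar gene in TPM (log axis) in the B6 library (circles) and the CAST library (squares), grouped by role, 1 library per strain. Enzyme and granule genes sit to the right in CAST, whereas the 2 points of each transcription factor nearly coincide, as for Ptf1a at 0.595 and 0.633 TPM.

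Chymotrypsins, which cut proteins after large hydrophobic residues, gave the highest level of all 31 genes and the widest ratio. Ctrb1, the main chymotrypsinogen gene, stood at 1778 TPM in B6 and 5072 in CAST, rank 23 and rank 8 among all genes with 20 or more counts. Its counts were 92908 and 412177, a log2 ratio of 1.86 (1.85 to 1.87). Ctrl, a chymotrypsin-like protease gene, had 19626 and 69041 counts (1.53, 1.50 to 1.55). Both genes were thus somewhat under the median of the 31.

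Ctrc, which encodes chymotrypsin C, a regulator that degrades trypsinogen and cleaves its activation peptide, did not follow its relatives. It had 153 B6 counts and 21065 CAST counts, a log2 ratio of 6.81 (6.59 to 7.06) or 112-fold. Only 1.18% of all genes had a ratio that high, and the next acinar gene, Cckar, was at 3.51. In B6 there were 601 Ctrb1 transcripts for each Ctrc transcript by TPM, and in CAST 21.1. Ctrc therefore made up 0.0417% of the counts of the 31 genes in B6 and 1.19% in CAST.

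C57BL/6 mice are known, as background, to carry a deletion of a base in Ctrc that shifts its reading frame. The annotation of the reference genome, which is of this strain, shows how the gene is laid out. Ctrc (ENSMUSG00000062478) lies on chromosome 4, 141814962 to 141846359, minus strand, on GRCm38. RefSeq lists it as a transcribed pseudogene, the only one of the 31 genes not listed there as protein coding. In GENCODE M21 the transcript Ctrc-201 leaves out 2 bases of the reference between exons 2 and 3, at 141845188 to 141845189, too few for an intron. Exon 2 of Ctrc-204, at chr4:141845182-141845272, is shown because it holds those bases, which are in capitals.
Ctrc exon 2: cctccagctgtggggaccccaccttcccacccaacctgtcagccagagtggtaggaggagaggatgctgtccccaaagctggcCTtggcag
Read from the start codon of the coding transcripts, Ctrc-204, with its 8 exons and these bases in place, reached a stop after 79 codons, in exon 4. With the 2 bases removed the same sequence ran for 267 codons, the length annotated for Ctrc-201. Ctrc-202, which runs for 235 codons, keeps both bases and leaves out an exon of 98 bases.

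The counts of Ctrc were spread over its transcripts in different ways. Ctrc-204 had 88 B6 counts and 20429 CAST counts, a log2 ratio of 7.56 (7.27 to 7.89), and its part of the gene's TPM was 52.5% and 96.3%. Ctrc-202 had 60 and 598 counts (3.02, 2.64 to 3.44). All transcripts other than Ctrc-204 together had 65 and 636 counts, 7.96-fold higher in CAST (log2 ratio 2.99, 2.63 to 3.39). The divergence of Ctrc from the other chymotrypsins thus sat mostly in the transcript whose frame is broken on the reference. Ctrc-205, which runs on into the elastase gene Cela2a, had 0 counts in each library, so none of the reads of the stretch shared with Cela2a (67381 and 298409 counts) was assigned to Ctrc. CAST reads were counted on the B6 reference, and the part that the frame, the strain variants or the division of reads among transcripts has in this difference was not tested.

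**Figure D2:**
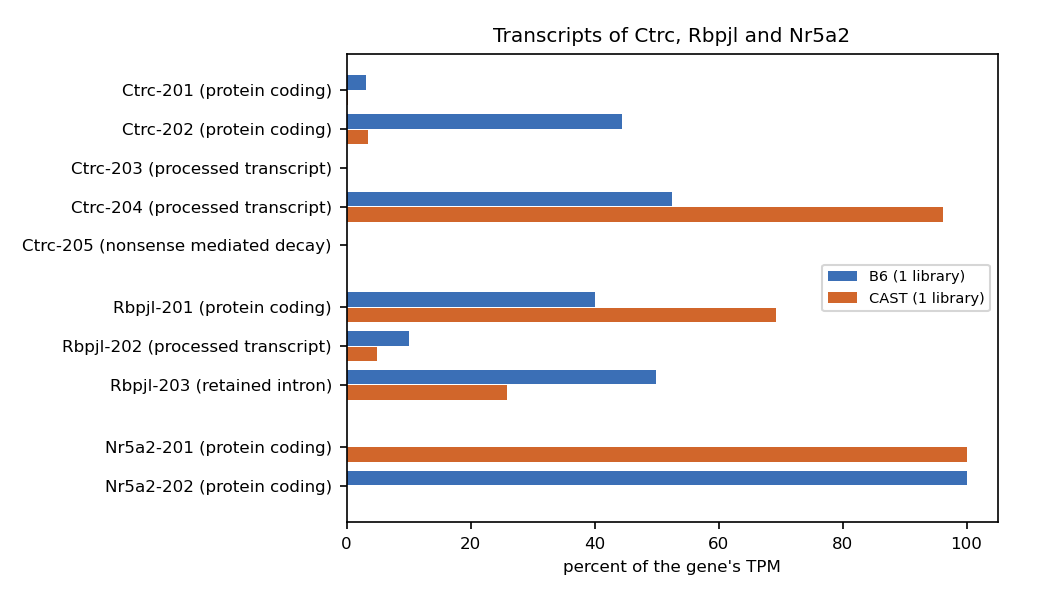
Percent of each gene's TPM assigned to its transcripts in the B6 and CAST libraries (bars, 1 library each) for Ctrc, Rbpjl and Nr5a2, with the annotated transcript type in brackets. Ctrc-204 holds 52.5% in B6 and 96.3% in CAST, and all of Nr5a2 is assigned to Nr5a2-202 in B6 and to Nr5a2-201 in CAST.

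Carboxypeptidases, which trim amino acids from the ends of peptides, stood lowest among the enzyme groups. Cpa1, which removes aromatic and aliphatic residues, had 41530 B6 counts and 161019 CAST counts (log2 ratio 1.67, 1.65 to 1.68). Cpb1, which removes basic residues, had 37006 and 111397 (1.30, 1.28 to 1.32) and was the lowest of the digestive enzyme genes. Per Cpa1 transcript there were 0.508 Cpb1 transcripts in B6 and 0.394 in CAST by TPM, so the pair also differed from each other.

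The lipase genes lay above the proteases other than Ctrc. On TMM-scaled counts each of the 6 was at least 4-fold higher in CAST, where 4.56% of all genes were. With total counts 5 were, Pnliprp1 falling just short, and by TPM 3 were, with Pnlip at 1.89, Pnliprp1 at 1.80 and Pnliprp2 at 1.79. Pnlip, the pancreatic triglyceride lipase gene (chromosome 19, 58652498 to 58681788), had 54732 B6 counts and 315366 CAST counts, a log2 ratio of 2.24 (2.22 to 2.25). Clps encodes colipase, the cofactor that anchors this lipase to fat droplets in the presence of bile salts, and had 15134 and 105832 counts (2.52, 2.49 to 2.54). Colipase transcripts per Pnlip transcript were 0.828 in B6 and 1.00 in CAST by TPM. The lipase-related genes Pnliprp1 and Pnliprp2 kept close to Pnlip. Pnliprp1 had 21747 and 118372 counts (2.16) and Pnliprp2, which codes for a galactolipase, 2875 and 15776 (2.17). Their transcripts per Pnlip transcript were 0.363 and 0.0496 in B6 and 0.343 and 0.0473 in CAST.

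The remaining fat-digesting enzymes also lay above Pnlip. Cel, the carboxyl ester lipase or bile salt-stimulated lipase gene, had 29469 B6 counts and 193779 CAST counts (log2 ratio 2.43, 2.41 to 2.45). Pla2g1b, which encodes the secreted pancreatic phospholipase A2, had 790 and 6872 counts (2.83, 2.73 to 2.94), or 7.12-fold, the highest of this group. The intervals of Cel, Clps and Pla2g1b did not overlap that of Pnlip, so within counting error the lipase genes did not all share a ratio.

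Rnase1, the pancreatic ribonuclease gene, had 14107 B6 counts and 66372 CAST counts (log2 ratio 1.94, 1.92 to 1.97). Klk1, a tissue kallikrein gene, had 5240 and 21592 (1.75, 1.71 to 1.80). Its nearest relative in sequence, Klk1b5, at 94.4% identity over 957 bases, had 89 and 302 counts and Klk1b4, at 90.8%, 11 and 33. Both are small beside Klk1.

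Proteins of the granule and of mucus formed a group of 7 genes, all at least 2-fold higher in CAST and within a narrow range, log2 1.87 to 2.54. Sycn, which encodes syncollin, a protein of the inner face of the granule membrane, had 5805 B6 counts and 25982 CAST counts (1.87). Zg16, the gene of a zymogen granule lectin that is also made in gut, had 6190 and 37535 (2.31). Gp2, whose product is the major glycoprotein anchored in the granule membrane, had 3321 and 23564 (2.54, 2.49 to 2.59) and was the highest of the group. The less abundant members lay inside this range. Cuzd1, which codes for a granule membrane protein with CUB and zona pellucida domains, had 783 and 4775 counts (2.32), and Serpini2, a serine protease inhibitor gene, 390 and 2113 (2.15). Dmbt1, which encodes a large scavenger receptor protein of mucosal secretions, had 6340 and 28671 (1.89), and Tff2, a trefoil peptide gene best known from the stomach, 874 and 4691 (2.13).

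Of 3 genes of the early secretory path, 2 had ratios like the enzymes and 1 did not. Pdia2, the gene of a protein disulfide isomerase made mainly in pancreas, had 1401 B6 counts and 6945 CAST counts, and its log2 ratio of 2.02 (1.94 to 2.10) was the median of the 31. Erp27, a related endoplasmic reticulum protein gene, had 201 and 905 counts (1.88, 1.66 to 2.11). Tmed6, which encodes a cargo receptor of the p24 family that cycles between endoplasmic reticulum and Golgi, had 586 and 1096 (0.61, 0.47 to 0.76). At 11.6 TPM in B6 it came close to Pdia2 at 13.2, but in CAST the levels were 13.9 and 42.1. The only gene similar in sequence to Tmed6, Gm14755 at 94.0% identity, had 0 counts in both libraries.

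The receptor gene Cckar and the water channel gene Aqp8 had the next largest ratios after Ctrc on scaled counts, where these 3 were at least 8-fold higher in CAST, as were 2.96% of all genes. The call for Aqp8 rests on few counts: it passed the count filter only through CAST, and its log2 ratio was 2.75 with a constant of 5 and 0.52 by TPM. By TPM Cckar was at 2.49 and only Ctrc was past 8-fold. Cckar encodes the receptor for cholecystokinin, the gut hormone that triggers enzyme secretion, and lies on chromosome 5, 53697776 to 53707705. It had 254 B6 counts and 3543 CAST counts, 11.4-fold (log2 ratio 3.51, 3.33 to 3.70), and stood at 1.38 and 12.4 TPM. Aqp8 had 5 and 73 counts (3.46), and its interval of 2.29 to 5.24 spans ratios from near the middle of the group to far above it. Aqp12, the other aquaporin gene, had 133 and 519 counts (1.67, 1.40 to 1.96). Gnmt, a glycine N-methyltransferase gene expressed in liver and exocrine pancreas, had 126 and 637 (2.04, 1.77 to 2.34), close to the median of the 31. The lower bound of Cckar lay above the upper bound of every acinar gene other than Ctrc and Aqp8.

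**Figure D3:**
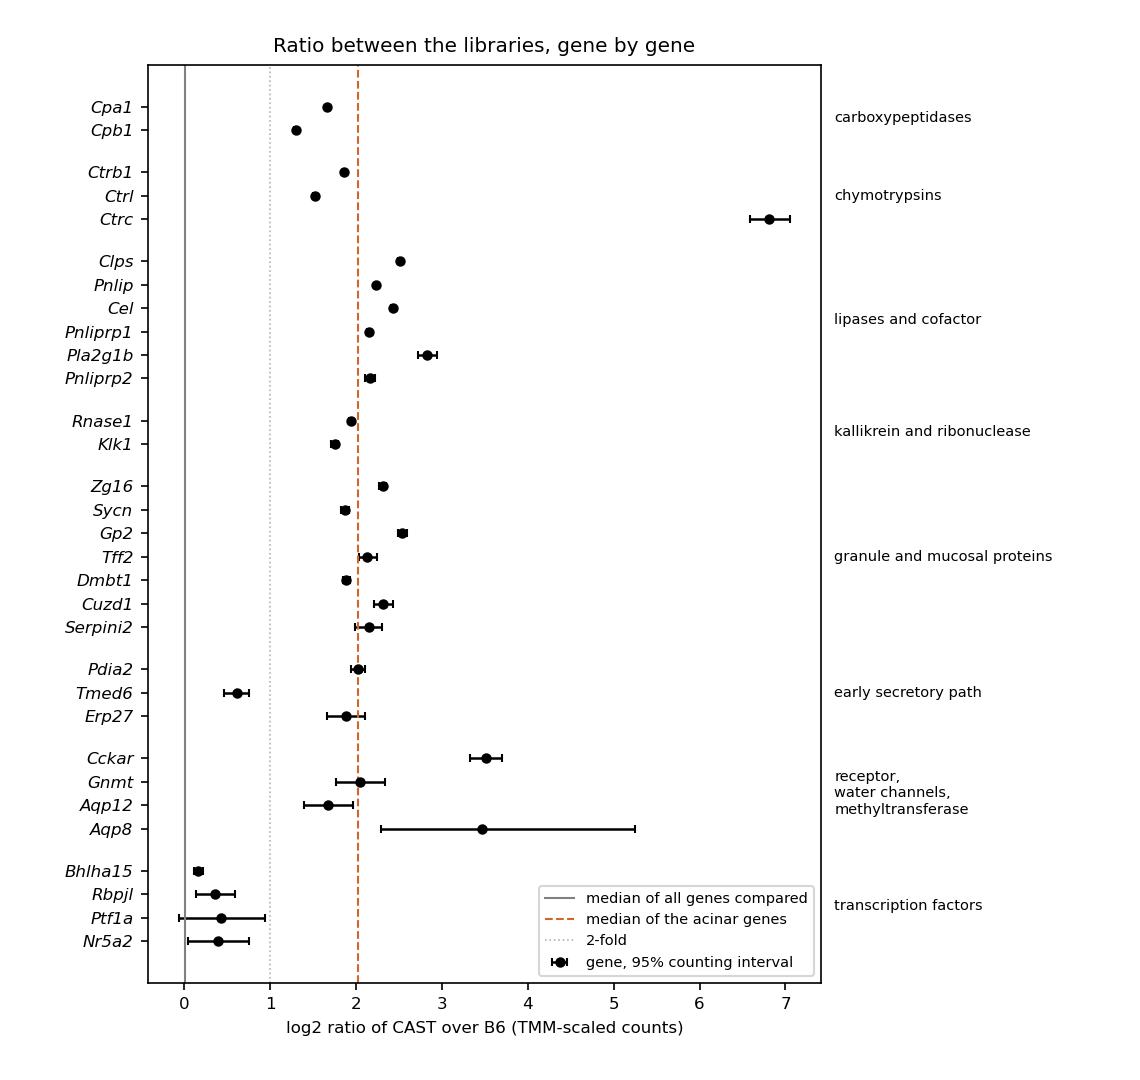
Log2 ratio of CAST over B6 for each acinar gene on TMM-scaled counts, with its 95% counting interval (bars, often smaller than the point), the median of all genes with 20 or more counts (solid line), the median of the 31 genes (dashed line) and the 2-fold mark (dotted line). The 4 transcription factors and Tmed6 lie left of 2-fold, and Ctrc is the highest of the 31 at 6.81.

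All 4 transcription factor genes were within 2-fold. Bhlha15, whose product builds up the secretory apparatus of acinar cells (chromosome 5, 144190286 to 144194441), had 4841 B6 counts and 6647 CAST counts. Its log2 ratio was 0.17 (0.11 to 0.22) on scaled counts, but -0.17 by TPM (21.9 and 19.4 TPM), so its direction turned with the scaling. Ptf1a, which specifies pancreatic fate and later acinar identity, had 55 and 91 counts (0.43, -0.06 to 0.95), a ratio that counting error cannot set apart from 0. Rbpjl had 264 and 415 counts (0.36, 0.14 to 0.59), and Nr5a2, which encodes an orphan nuclear receptor that binds the enzyme genes, 111 and 179 (0.40, 0.05 to 0.76). The highest upper bound among them, 0.95 for Ptf1a, lay below the lowest bound of any other acinar gene except Tmed6, 1.28 for Cpb1. Bhlha15 was the most abundant of the 4 by far. The others stood between 0.482 and 1.40 TPM, where few reads bear on each value. Ptf1aos, a gene antisense to Ptf1a, had 0 counts in both libraries.

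Within Rbpjl the transcripts differed. The coding transcript Rbpjl-201 had 72 B6 counts and 231 CAST counts, a log2 ratio of 1.39 (1.01 to 1.80). Rbpjl-203, annotated as a retained intron, had 183 and 176 (-0.34, -0.65 to -0.04) and its part of the gene's TPM was 49.9% and 25.9%, against 40.0% and 69.2% for Rbpjl-201. The ratio near 0 of the whole gene thus joined a coding transcript above 2-fold with an intron-bearing one slightly below equality. Matn4, on the opposite strand, overlaps the gene and had 26 and 103 counts; strand was not stated, so its reads cannot be told apart from those of Rbpjl where they share sequence.

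Nr5a2 was assigned to different transcripts. All 111 counts of B6 fell on Nr5a2-202, with 7 exons and a start at 136949562 on chromosome 1 (minus strand), and all 179 of CAST on Nr5a2-201, with 9 exons and a start 10886 bases upstream. Taken as if observed directly, a count of 0 allows Nr5a2-201 up to 2.70% of the gene's counts in B6, and Nr5a2-202 up to 1.68% in CAST. These limits cover counting error only and do not bound the error of dividing reads between the transcripts. The transcripts share 2743 of the 3446 bases of Nr5a2-202, and how surely reads of the shared stretch were placed was not tested. Of the 12 acinar genes with several transcripts, only Nr5a2 and Rbpjl had another leading transcript in the other library. The main transcript of the others held over 50% of its gene's TPM in each library, as Cel-201 did with 78.8% in B6 and 76.1% in CAST.

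Apart from its amount, the makeup of the acinar signal differed between the libraries. Lipases and their cofactor took 34.0% of the counts of the 31 genes in B6 (33.8 to 34.1) and 42.8% in CAST (42.7 to 42.9). Carboxypeptidases took 21.4% and 15.4%, and chymotrypsins 30.7% and 28.4%. Transcription factors took 1.44% (1.40 to 1.48) and 0.415% (0.406 to 0.425). Nearly all of this was Bhlha15, which alone took 1.32% in B6 and 0.376% in CAST, and the cells its reads came from were not tested. Counts favour long transcripts, and as shares of TPM, which corrects for length, these values differ: transcription factors held 0.456% and 0.129%, and carboxypeptidases 12.2% and 8.76%. Chymotrypsins held 40.7% and 36.3% of TPM and lipases 31.1% and 39.4%, so in B6 chymotrypsins were above lipases by TPM and below them by counts. Each of these groups differed in the same direction between the libraries on both measures. The order of levels was otherwise alike: Spearman's rho between the TPM values of B6 and CAST was 0.960 over the 31 genes and 0.985 without Ctrc, as a description across genes that share a library. Ctrb1 was the highest in both libraries, and 4 of the 5 highest genes were shared.

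**Figure D4:**
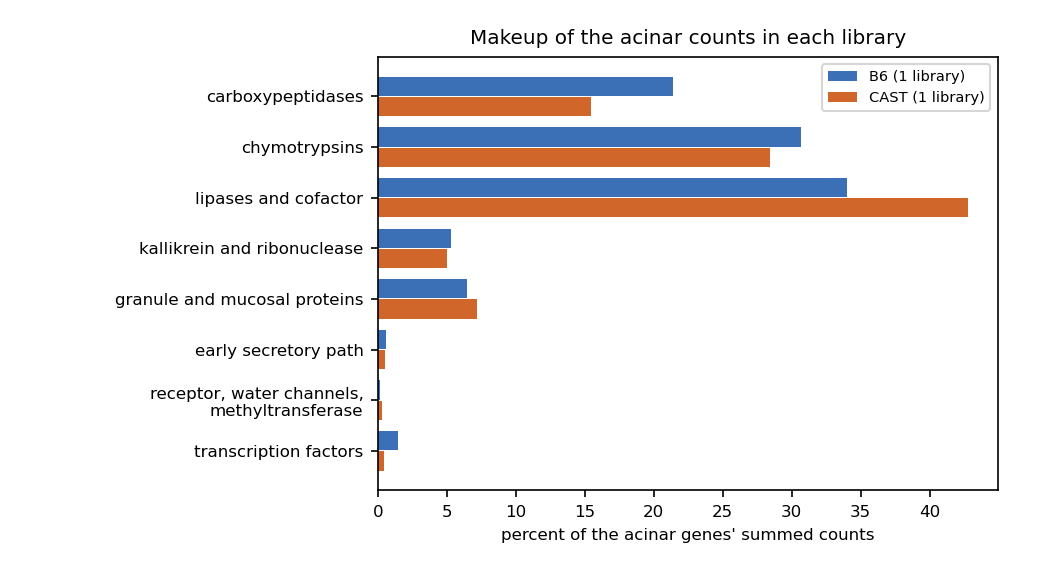
Percent of the summed counts of the 31 acinar genes held by each role group in the B6 and CAST libraries (bars, 1 library each). The lipase bar is longer in CAST (34.0% against 42.8%) and the carboxypeptidase bar longer in B6 (21.4% against 15.4%).

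Set beside all genes, the acinar genes lay in the upper tail. A ratio at or above the median of the 31 was found in 782 genes, 4.52% of those compared. Of 20 measured amylase, trypsinogen, elastase and related genes 19 were at least 2-fold higher in CAST, where 9.17% of all genes were. The remaining 1 was within 2-fold, and the median was 2.01. In this list 13 genes lay between 2-fold and 8-fold, and 6 lay far higher, so the ratio of Ctrc stood apart among the 31 genes but not among exocrine genes as a whole. The elastase gene Cela3a had 3 and 10666 counts (log2 ratio 11.30, 9.96 to 13.78) and passed the count filter only through CAST. Amylase genes among the 6 were Amy2b with 368 and 703091 counts (10.61) and Amy1 with 207 and 21693 (6.42). The others were the trypsinogen genes Prss1 with 47 and 16269 (8.13) and Try10 with 288 and 48758 (7.11), and Reg2, which encodes a secreted lectin-like protein, with 764 and 24469 (4.71). Prss3, a trypsinogen gene with 5432 and 5781 counts, was the lowest. The list holds near-identical copies among which reads are divided, so values of its single amylase and trypsinogen genes are uncertain. Amy2a2, Amy2a3, Amy2a4 and Amy2a5 had nearly the same counts, 94941 to 94950 in B6 and 269475 in CAST. The count of 19 and the median thus include them as if they were separate measurements.

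**Figure D5:**
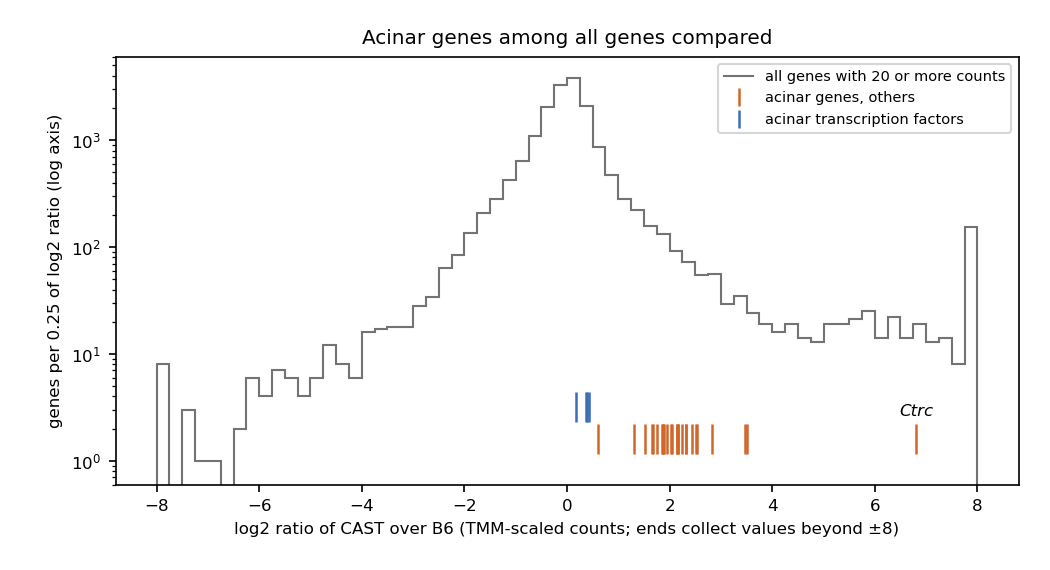
Number of genes per 0.25 of log2 ratio of CAST over B6 (line, log axis) for the 17282 genes with 20 or more counts, with the 31 acinar genes as ticks and values beyond the ends collected there. The transcription factors lie within the central peak, at 0.17 to 0.43, and most other acinar genes between 1.30 and 2.83.

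Other genes that act in acinar secretion or identity were distributed much like genes at large. Of 20 such genes 2 were at least 2-fold higher in CAST, where 9.17% of all genes were, 18 were within 2-fold and the median was 0.11, against 0.01 for all genes. Those 2 were Sctr and Gata4. Sctr, the secretin receptor gene, had 3 and 24 counts (2.54, 0.99 to 5.09). It passed the count filter only through CAST, and its interval reaches just below 2-fold. Gata4, a transcription factor gene, had 96 and 359 (1.61, 1.29 to 1.95). Among genes of this list with 100 or more counts Rab27b, a granule traffic gene, came after Gata4 with 133 and 248 counts (0.61, 0.30 to 0.92). Chrm3, the gene of the muscarinic receptor through which nerves drive acinar secretion, had 2005 and 1676 counts (-0.55, -0.64 to -0.45), and Syt1, a calcium sensor gene of vesicle release, 931 and 779 (-0.55). Cckar and Chrm3, receptors for the main stimuli of enzyme release, thus lay on opposite sides of equality.

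Markers of other cell types also differed between the libraries. Stellate cell and fibroblast markers summed to 26.6 TPM in B6 and 50.7 in CAST. By TMM-scaled counts 5 of 8 were at least 2-fold higher in CAST, where 9.17% of all genes were, Thy1 most at 295 and 2464 counts. Duct markers summed to 154 and 111 TPM. Of 7 measured duct genes 3 were at least 2-fold higher in CAST by TMM-scaled counts, Krt19 among them at 54 and 764 counts. Of these 7 genes 1, Ambp, was at least 2-fold higher in B6 (log2 ratio -1.10), where 8.12% of all genes were. Endothelial markers summed to 175 and 172 TPM and leukocyte markers to 18.5 and 13.4. On TMM-scaled counts both sums were instead higher in CAST, 1.23-fold and 1.07-fold, with median log2 ratios of 0.45 and 0.35. For the genes that gut also makes (Zg16, Tff2 and Dmbt1), the gut marker Vil1 had 8939 and 9349 counts, Cdx2 had 1 count in each library and Cdh17 2 and 4, while Muc2 had 0 and 41 and Tff3 8 and 102. The part of these cells in the acinar ratios was not tested.

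The promoters of the 31 genes were searched because so many of them were higher together. RefSeq promoters on GRCm38.p6, 250 bases before to 50 after the start, were given for 24 of them. The PTF1 complex binds an E-box, CANNTG, next to TTTCCC, and both were sought on either strand with at most 25 bases between them. The pair was found in 3 of 24 promoters, or 12.5%, against 6.42% of the promoters of 27025 genes. CANNTG alone was in 79.2% and 75.0%, TTTCCC alone in 20.8% and 27.9%, and TCAAGGTCA, a motif of NR5A2, in 0 of 24 and 0.466%. The 3 stretches are printed to show the letters matched, in capitals, 5′ to 3′ on the gene's strand. They lie at chr2:28563451-28563501 (minus strand) for Cel, chr6:30639168-30639216 (plus strand) for Cpa1 and chr8:111691188-111691227 (minus strand) for Ctrb1.
Cel: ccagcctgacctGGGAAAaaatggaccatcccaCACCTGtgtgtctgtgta
Cpa1: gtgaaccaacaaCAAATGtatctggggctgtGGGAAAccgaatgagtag
Ctrb1: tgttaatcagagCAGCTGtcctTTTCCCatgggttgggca
The gap between the matched letters was 15 bases in Cel, 13 in Cpa1 and 4 in Ctrb1, and the matches began at -86, -38 and -205 relative to the start. A match is a description of the letters and no evidence of binding. The 3 genes had log2 ratios of 2.43, 1.67 and 1.86, on either side of the median of the 31.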

How the data were processed

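The deposited files list 94545 transcripts per library without a header. Per the submitters' processing notes the authors used RSEM on GRCm38, with versions, aligner, annotation release and strand setting not given in the sources used here. One deposited column holds the authors' expected counts, the other a fraction of transcript molecules that sums to 1 and was rescaled to TPM. Counts were summed per gene ID, rounded and named from GENCODE M21 (37607 of 38924 matched). Ratios used TMM factors (edgeR 4.0.16, R 4.3.3) with 0.5 added, leaving out genes under 20 counts in all; 95% intervals are exact Clopper-Pearson intervals of the CAST share, for counting error only. A count of 0 allows 3 counts. Copies were sought with minimap2 2.31 at 95% identity over 200 bases and 50% of the shorter transcript. All 31 genes are named; of 20 secretion genes the 2 highest and 2 lowest ratios with 100 or more counts, and of markers the highest, the lowest and hormones; Sctr and other gut markers were added after their values were seen. The genes and lists were chosen with earlier results of these data known. Alternatives were DESeq2 1.42.0 size factors, total counts, TPM with 1 added, other filters and constants, thinning, copies summed and the most abundant transcript alone. Protein measurements were not analysed here.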

Additional observations from a re-analysis of the deposited data

How the results depend on the processing

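The median log2 ratio of the 31 genes, 2.02, was 1.86 with total counts and 1.52 by TPM; with DESeq2 size factors, copies summed, a constant of 5, thinning, other count filters or the most abundant transcript alone it stayed between 1.98 and 2.09. The number at least 2-fold higher in CAST, 26, ranged from 24 (TPM) to 28 (most abundant transcript). By TPM Cpb1 at 0.95 and Aqp8 at 0.52 were under 2-fold. With the most abundant transcript Rbpjl at 1.37 and Nr5a2 were over it. Of all genes 9.17% were at least 2-fold higher in CAST on TMM-scaled counts, 8.11% with total counts and 2.92% by TPM. The 1 added TPM draws low genes such as Aqp8 toward 0. By TPM the number at least 4-fold higher was 6 in place of 16 (11 with total counts). At least 8-fold higher were 1 in place of 3 (2 with a constant of 5 or 100 or more counts). Of lipase genes 3 in place of 6 were at least 4-fold higher by TPM. These counts were compared across settings after seeing the data. The shares of all genes at 4-fold and 8-fold, 4.56% and 2.96%, were counted on TMM-scaled values only. The share of counts was 0.622% and 2.31% without hormone genes in the total, 0.358% and 1.30% without Ctrb1, and 0.529% as TPM in B6. Of 309 ratios of a single gene under an alternative 308 kept their sign. Many of the 309 had no room to change: count filters leave a gene's ratio as it is, and summing copies moved only Klk1, at 90% identity. The 308 thus overstate how far the ratios were tried. Bhlha15 by TPM was -0.17, and the cause was not tested. By counts in place of TPM Ctrc-204 held 97.0% of its gene in CAST, and Rbpjl-203 69.3% in B6 and 42.4% in CAST. Summing copies of 90% identity was chosen after seeing the data. No paired analysis was possible because each strain had 1 library. Ratios of Aqp8, Ptf1a, Nr5a2 and Gnmt are limited by depth, with 5 to 126 counts in B6.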
